A study of Danio rerio with 6 samples.

Results

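The mitochondrial genome genes were the 37 genes that the count files place on the mitochondrial chromosome, of 32520 genes counted in all. They were chosen by chromosome alone and comprised 13 protein genes, 2 ribosomal RNAs (rRNAs) and 22 transfer RNAs (tRNAs). Their counts came from RNA sequencing of 6 zebrafish libraries in 3 groups of 2. The mgat4b mutant melanoma group carried the MAZERATI plasmids, which express the BRAF V600E oncogene in melanocytes and direct Cas9 against p53 and pten, together with guides against mgat4b and Cas9 under the melanocyte promoter of mitfa. The control melanoma group carried the MAZERATI plasmids and, by the authors' account, a guide RNA without a target. It was wild type for mgat4b, a Golgi enzyme that adds a branch to N-glycans. The wild-type melanophores, the pigment cells from which such tumors arise, came from the skin of untreated wild-type fish. All 3 groups came from month-old fish, and the melanoma was started in fish of the Assam wild-type strain. Both melanoma groups came from the skin and held transformed cells as well as ordinary melanophores. According to the authors, control fish had aggressive tumors within a month, whereas melanocytes of mgat4b mutant fish showed some aggregation but formed no tumors. The name mgat4b mutant melanoma follows the sample labels. All cells were enriched on a Percoll density gradient and not sorted, plasmid-injected fish are mosaic, and the number of fish behind each library is not given, so that the tests measure the spread between these libraries.

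Animal mitochondrial DNA is a small circle that encodes the ribosomal RNAs and transfer RNAs of the mitochondrial ribosome and a handful of membrane subunits of the respiratory chain. The nd genes encode subunits of complex I (NADH dehydrogenase), cyb the cytochrome b of complex III, the co genes the catalytic core of complex IV (cytochrome c oxidase) and the atp genes the membrane part of complex V (ATP synthase). All other subunits come from the nucleus. Each strand is transcribed as a long precursor, in which tRNAs punctuate the other genes and are cut out, so that levels of the mature RNAs depend on transcription, cutting and stability together. In vertebrates, a promoter region beside the tRNA for phenylalanine starts the strand that carries most genes, and the rRNAs are the first long genes behind it. Normal melanocytes and melanoma cells use both glycolysis and respiration, and melanoma cells with BRAF mutations are known for shifts between these.

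The files use the build GRCz11 and give 1 unspliced interval for each of the 37 genes. The 12S rRNA mt-rnr1 (ENSDARG00000082753) lies on the plus strand of the mitochondrial chromosome from 1020 to 1971 and the 16S rRNA mt-rnr2 (ENSDARG00000080337) from 2043 to 3725. The longest interval belongs to mt-nd5 (12897 to 14717) and the shortest protein gene is mt-atp8 with 165 bases. On the minus strand lie 9 genes, mt-nd6 (14714 to 15232) and 8 tRNAs. Names of the rRNAs and tRNAs came from the RefSeq gene table of assembly GRCz12tu, in which all 37 intervals had the same start and end. Of the 36 pairs of neighbouring genes, 13 touch, 10 overlap and 13 are set apart by at most 32 bases. The files give an overlap of 7 bases for mt-atp8 with mt-atp6 and for mt-nd4l with mt-nd4, and of 4 bases for mt-nd5 with mt-nd6, which lie on opposite strands. The library kit keeps the strand, but the strand setting of the counting is not given, so reads of mt-nd6 and of the RNA opposite to it cannot be told apart here. The same holds for the minus-strand tRNAs, and reads that span junctions between neighbours may have been given to either gene or to none.

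Total counts were 5225341 and 3538922 in mgat4b mutant melanoma, 8223044 and 8446997 in control melanoma and 7351705 and 7121087 in wild-type melanophores. The 20 most abundant other genes took 45.9% and 42.0% of the counts in mgat4b mutant melanoma, 54.1% and 54.5% in control melanoma and 17.7% and 17.6% in wild-type melanophores. Levels are therefore given in CPM, counts per 1000000 counts of a library size scaled by TMM, a method that sets the bulk of genes to no change. Counts of mgat4b itself were 94 and 52 in mgat4b mutant melanoma, 102 and 107 in control melanoma and 264 and 260 in wild-type melanophores. In CPM these were 19.8 and 15.1, 15.7 and 16.2, and 26.5 and 27.1 in that order of groups. The mutant and control melanoma libraries overlap in mgat4b CPM, and small deletions made by Cas9 need not change a count, so these counts do not check the label. Markers of melanophores were present but low in the wild-type libraries. The 20 melanophore markers summed to 365 and 341 CPM in mgat4b mutant melanoma, 320 and 331 CPM in control melanoma and 86.2 and 90.3 CPM in wild-type melanophores. The melanin synthesis gene dct (DCT in the name table) had 7 and 0, 14 and 15, and 1 and 3 counts in the same order. Not all markers followed the sum, and a gene named MITF (ENSDARG00000037833) had 7 and 0, 23 and 48, and 138 and 117 counts. The other gene of that name (ENSDARG00000003732) had 20 and 4, 16 and 13, and 28 and 15 counts. In CPM these were 4.22 and 1.16, 2.46 and 1.96, and 2.81 and 1.57, which overlapped between the groups. The marker list names mitfa alone, and both genes were matched to it through the symbol MITF, which does not tell them apart. Against wild-type melanophores, 15 of 20 markers tested were called higher and 1 lower in control melanoma, beside 19.9% and 12.1% of all genes. In mgat4b mutant melanoma, 9 of 18 were called higher and 1 lower, beside 9.72% and 9.57%. Skeletal muscle, a tissue rich in mitochondria, had 43 markers with a sum of 3433 and 3251 CPM in mgat4b mutant melanoma, 4832 and 4984 CPM in control melanoma and 531 and 505 CPM in wild-type melanophores. The 30 leukocyte markers, of which 1 was at 0 in every library, summed to 1372 and 1446, 1510 and 1543, and 3990 and 4084 CPM in that order. The 27 fibroblast and scale markers summed to 13210 and 12740, 65300 and 66920, and 5499 and 4982 CPM. The 23 keratinocyte markers summed to 19850 and 18610, 13670 and 13530, and 21800 and 22280 CPM. The share of all counts held by mitochondrial genes had the same order of groups. In the summed CPM of the mitochondrial genes, however, mgat4b mutant melanoma and wild-type melanophores overlapped. The 20 hepatocyte markers summed to 752.9 and 712.6, 2024 and 2059, and 418.8 and 416.6 CPM. Of these, 17 of 18 tested were called lower in mgat4b mutant against control melanoma, beside 6.68% of all genes. When control melanoma was set against wild-type melanophores, 18 of 19 tested were called higher, beside 19.9% of all genes. For the summed markers of erythrocytes, ionocytes, iridophores and xanthophores, the highest group mean was at most 1.897 times the lowest. Single pigment cell markers differed more. In control melanoma against wild-type melanophores, 11 of 15 xanthophore markers tested were called higher and 1 lower, and 10 of 17 iridophore markers higher and 0 lower. In mgat4b mutant melanoma, 7 of 15 xanthophore markers were called higher and 2 lower, and 9 of 18 iridophore markers higher and 1 lower. The shares of all genes are those given for the melanophore markers. These cell types move with the groups compared, and their part in the mitochondrial results was not tested. In bulk samples, fewer cells of a type and less RNA per cell cannot be told apart.

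Mitochondrial genes took a smaller part of all counts in both melanoma groups than in wild-type melanophores, while in CPM only control melanoma lay below wild-type melanophores. All 37 genes together held 1.91% and 2.57% of the counts in mgat4b mutant melanoma, 1.13% and 0.979% in control melanoma and 3.27% and 3.44% in wild-type melanophores. The means were 2.24% ± 0.466, 1.06% ± 0.108 and 3.36% ± 0.121 (SD, n = 2 each), and the groups did not overlap. Counting error was small beside this spread, since the exact Clopper-Pearson 95% interval of the shallowest library, mgat4b mutant melanoma replicate 2, ran from 2.56% to 2.59%. These intervals cover counting error only. With 2 libraries a group, the exact two-sided permutation test cannot go below p = 0.333, so no p is given for shares and sums. On the CPM scale, the 37 genes summed to 21085 and 26368 in mgat4b mutant melanoma, 14322 and 12491 in control melanoma and 24163 and 25610 in wild-type melanophores. There mgat4b mutant melanoma overlapped with wild-type melanophores.

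The 13 protein genes alone gave another order. They held 0.560% and 0.719% of the counts in mgat4b mutant melanoma, 0.578% and 0.524% in control melanoma and 1.55% and 1.68% in wild-type melanophores, so that the melanoma groups overlapped and both lay below the wild-type libraries. On the CPM scale, the 13 genes summed to 6175 and 7371 in mgat4b mutant melanoma, 7312 and 6685 in control melanoma and 11418 and 12515 in wild-type melanophores. The mean sum of mgat4b mutant melanoma was 0.968 times that of control melanoma. Against wild-type melanophores, the mean sum was 0.566 times as large in mgat4b mutant and 0.585 times in control melanoma. The higher mitochondrial share in mgat4b mutant than in control melanoma lay mostly in the rRNAs. Of all mitochondrial counts, they made up 70.6% and 72.0% in mgat4b mutant melanoma, 48.7% and 46.3% in control melanoma and 52.6% and 51.0% in wild-type melanophores. When the 20 most abundant other genes were left out of the library total, the 37 genes held 3.53% and 4.44% in mgat4b mutant melanoma, 2.47% and 2.15% in control melanoma and 3.97% and 4.18% in wild-type melanophores. On this scale mgat4b mutant melanoma overlapped with wild-type melanophores.

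**Figure D1:**
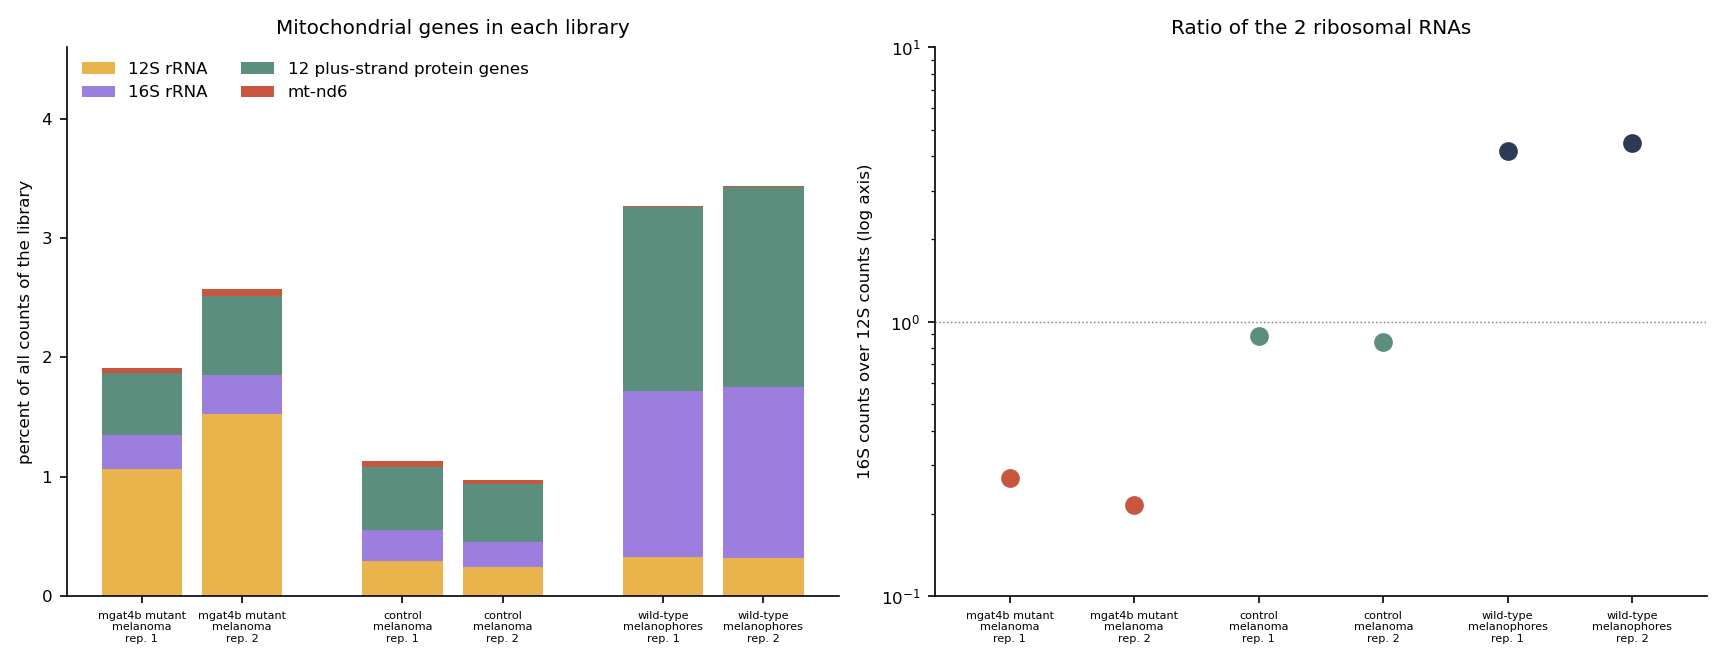
Left, stacked bars give the percent of all counts of each library that fell on the 12S rRNA, the 16S rRNA, the 12 plus-strand protein genes and mt-nd6, with 2 libraries for each of the 3 groups. Right, points give the 16S counts over the 12S counts of each library on a log axis, which lie at 0.270 and 0.215 in mgat4b mutant melanoma, at 0.884 and 0.841 in control melanoma and at 4.19 and 4.47 in wild-type melanophores.

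The 2 rRNAs, which form the small and the large subunit of the mitochondrial ribosome, differed between groups in different ways. The 12S rRNA had 55586 and 53950 counts in mgat4b mutant melanoma, 24083 and 20796 in control melanoma and 24414 and 22880 in wild-type melanophores. The 16S rRNA had 15009 and 11589 counts in mgat4b mutant melanoma, 21291 and 17492 in control melanoma and 102208 and 102161 in wild-type melanophores. The 12S exceeded the 16S in mgat4b mutant melanoma, in control melanoma they were nearly level, and in wild-type melanophores the 16S exceeded the 12S.

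On the CPM scale the 12S rRNA averaged 13671 ± 2759 in mgat4b mutant melanoma, 3422 ± 398 in control melanoma and 2421 ± 44.6 in wild-type melanophores (SD, n = 2 each). It rose in mgat4b mutant melanoma, with a log2 fold change of 2.04 (SE 0.14) against control melanoma (edgeR adjusted p = 3.9e-05). It rose by 2.58 against wild-type melanophores (SE 0.14, edgeR adjusted p = 4.4e-05). Control melanoma differed from wild-type melanophores in the 12S rRNA by a log2 fold change of 0.62 (SE 0.05, edgeR adjusted p = 1.6e-16), which turned to -0.28 when libraries were scaled by their totals. The 16S rRNA averaged 3260 ± 135 CPM in mgat4b mutant melanoma, 2958 ± 448 CPM in control melanoma and 10467 ± 284 CPM in wild-type melanophores. Against wild-type melanophores it fell by 1.71 on the log2 scale in control melanoma (SE 0.05, edgeR adjusted p = 1.0e-33). It fell by 1.60 in mgat4b mutant melanoma (SE 0.07, edgeR adjusted p = 1.9e-05), a call lost when libraries were scaled by their mitochondrial protein genes, at -0.86. Between mgat4b mutant and control melanoma, the log2 fold change of the 16S rRNA was 0.18 (SE 0.10, edgeR adjusted p = 0.28).

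Ratios within a library do not depend on the scaling of libraries. Per kilobase, the 16S level over the 12S level was 0.153 and 0.122 in mgat4b mutant melanoma, 0.5001 and 0.476 in control melanoma and 2.37 and 2.53 in wild-type melanophores. The 12S counts over the counts of the 12 plus-strand protein genes were 2.04 and 2.30 in mgat4b mutant melanoma, 0.556 and 0.510 in control melanoma and 0.216 and 0.192 in wild-type melanophores. The 16S counts over the same 12 genes were 0.550 and 0.494, 0.492 and 0.429, and 0.905 and 0.858 in the same order of groups. The 12S ratio thus stood well apart in all 3 groups. The 16S ratio stood well apart in wild-type melanophores only, as the melanoma groups did not overlap but nearly met, at 0.494 and 0.492. The library kit removes cytoplasmic and mitochondrial rRNA with beads before sequencing, so these counts are what was left after removal. How completely each rRNA was removed in each library is not given, and its part in the rRNA differences was not tested.

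The count test called few members between the melanoma groups and more against wild-type melanophores, where larger shares of all genes were called as well. For each pair of groups, a gene was called at an edgeR adjusted p under 0.05, taken over all genes tested, with a difference of 2-fold or more. In mgat4b mutant against control melanoma, 20 of the 37 genes had enough counts to be tested, and 1 was called higher, against 5.86% of all genes tested, and 1 lower, against 6.68%. In control melanoma against wild-type melanophores, 22 were tested, and 4 were called higher, against 19.9% of all genes, and 5 lower, against 12.1%. In mgat4b mutant melanoma against wild-type melanophores, 19 were tested, and 2 were called higher, against 9.72% of all genes, and 6 lower, against 9.57%. Without the 2-fold minimum, 2 members were higher and 2 lower in mgat4b mutant against control melanoma, beside 9.46% and 9.26% of all genes. Likewise 6 were higher and 11 lower in control melanoma against wild-type melanophores, beside 29.2% and 27% of all genes, and 4 were higher and 11 lower in mgat4b mutant melanoma against wild-type melanophores, beside 13.1% and 13.9%. Most of the members called at any fold in the comparisons with wild-type melanophores were therefore lower in melanoma, in shares of the tested members above the background, while the counts of members higher lay nearer to it. This balance turns with the scaling. When the 13 mitochondrial protein genes set the scale, 5 members were called higher and 1 lower at 2-fold in mgat4b mutant melanoma, and 8 higher and 3 lower in control melanoma, each against wild-type melanophores. The median of all genes tested was then 0.72 in mgat4b mutant and 0.65 in control melanoma. Leaving out single libraries moved the smaller counts. The group then holds 1 library and the spread is measured in the other group alone. Calls can therefore change while fold changes hardly move, here and wherever 1 library is left out below. Between the melanoma groups, 3 members were lower without mgat4b mutant melanoma replicate 1, with trnM and trnY added, and 3 higher without its replicate 2, with trnQ and trnW added. None was lower there without control melanoma replicate 1 or replicate 2. Against wild-type melanophores, 5 members were higher in mgat4b mutant melanoma without its replicate 2, with mt-nd3, trnQ and trnW added, and 4 were lower without wild-type melanophores replicate 2, with trnS1 and trnD lost. The comparisons share libraries, so their calls are not independent of each other. The median log2 fold change of the protein genes tested was -0.07 in mgat4b mutant against control melanoma, beside -0.02 over all genes tested. Against wild-type melanophores it was -0.45 in control melanoma and -0.49 in mgat4b mutant melanoma, beside -0.01 and -0.03 over all genes.

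**Figure D2:**
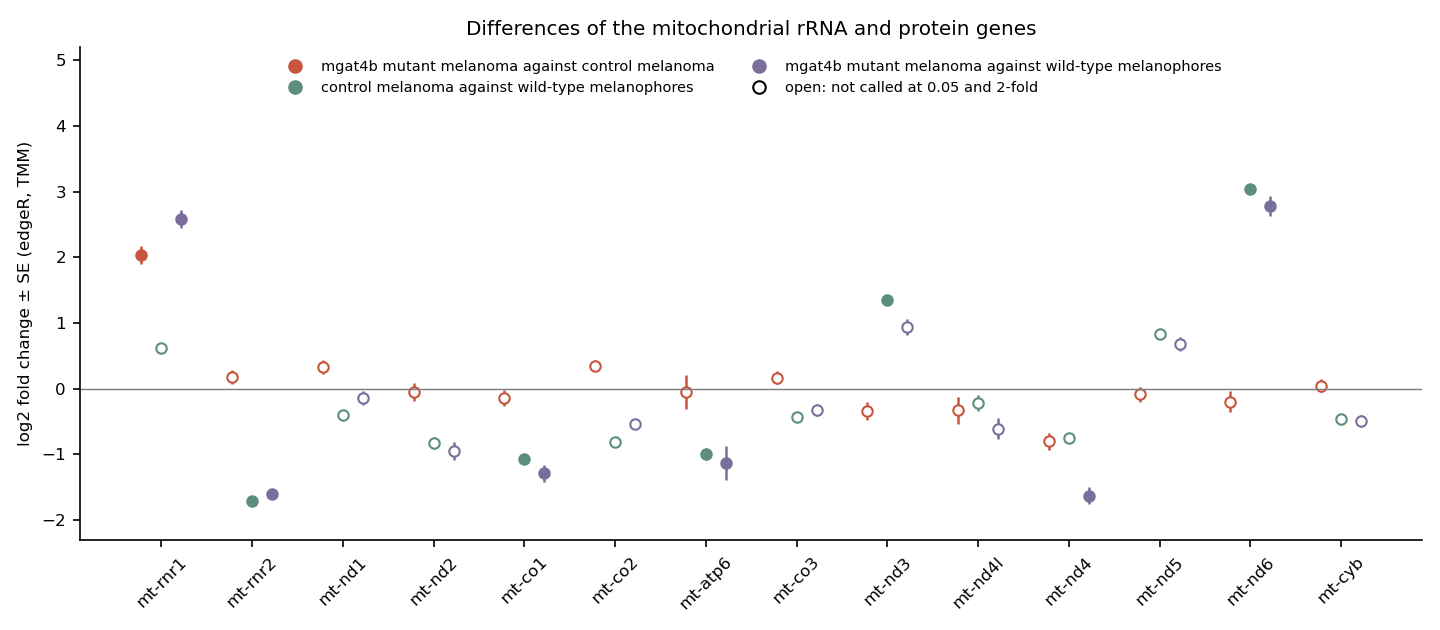
Log2 fold changes of both rRNAs and of 12 protein genes in gene order, for 3 comparisons. Bars give 1 SE derived from the edgeR test, and points are filled where the gene was called at an adjusted p of 0.05 and 2-fold. Of the genes plotted, the 4 farthest from 0 are mt-nd6, at 2.78 in mgat4b mutant and 3.05 in control melanoma against wild-type melanophores, mt-rnr1, at 2.04 against control melanoma and 2.58 against wild-type melanophores in mgat4b mutant melanoma, mt-rnr2, at -1.60 in mgat4b mutant and -1.71 in control melanoma against wild-type melanophores, and mt-nd4, at -1.63 in mgat4b mutant melanoma against wild-type melanophores.

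The genes of complex IV were the most abundant protein genes and were lower in both melanoma groups. The catalytic subunit mt-co1, which holds the site where oxygen is reduced, had 10875 and 10433 counts in mgat4b mutant melanoma, 20491 and 19148 in control melanoma and 65224 and 68920 in wild-type melanophores. Its level was 2657 ± 515 CPM in mgat4b mutant melanoma, 3022 ± 184 CPM in control melanoma and 6874 ± 456 CPM in wild-type melanophores (SD, n = 2 each). Against wild-type melanophores it fell by 1.07 on the log2 scale in control melanoma (SE 0.04, edgeR adjusted p = 3.8e-28). It fell by 1.29 in mgat4b mutant melanoma (SE 0.13, edgeR adjusted p = 7.3e-04). Both calls were lost with libraries scaled by their mitochondrial protein genes, at -0.41 and -0.56, where mt-co1 is itself the largest part of the scale. Ranked per kilobase among all 32520 genes, mt-co1 stood at places 45 and 31 in mgat4b mutant melanoma, 35 and 39 in control melanoma and 7 in both wild-type libraries.

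The other core subunits of complex IV were lower by less. The copper-binding subunit mt-co2 had 5110 and 3783 counts in mgat4b mutant melanoma, 5876 and 5626 in control melanoma and 16063 and 16671 in wild-type melanophores. These gave 1086 ± 12.7, 877 ± 38.2 and 1677 ± 90.1 CPM (SD, n = 2 each). Against wild-type melanophores its log2 fold change was -0.54 (SE 0.07, edgeR adjusted p = 0.00255) in mgat4b mutant melanoma and -0.82 (SE 0.05, edgeR adjusted p = 6.0e-21) in control melanoma. It was the protein gene with an adjusted p under 0.05 that was higher in mgat4b mutant than in control melanoma, by 0.35 on the log2 scale (SE 0.08, edgeR adjusted p = 0.0186). Its edgeR adjusted p rose to 0.226 without control melanoma replicate 1, 0.467 without control melanoma replicate 2, 0.259 with libraries scaled by their mitochondrial protein genes and 0.0559 with no filter on low counts. The subunit mt-co3 had 5610 and 4700, 7753 and 7489, and 16213 and 16789 counts in the same order of groups. Its log2 fold change against wild-type melanophores was -0.33 (SE 0.09, edgeR adjusted p = 0.0393) in mgat4b mutant melanoma and -0.43 (SE 0.04, edgeR adjusted p = 1.9e-11) in control melanoma. In mgat4b mutant melanoma its edgeR adjusted p was 0.0722 without wild-type melanophores replicate 1 and 0.26 without replicate 2.

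Complex III and complex V followed the same direction. Cytochrome b, mt-cyb, had 1824 and 1467 counts in mgat4b mutant melanoma, 2689 and 2590 in control melanoma and 5657 and 6106 in wild-type melanophores. Its log2 fold change against wild-type melanophores was -0.49 (SE 0.10, edgeR adjusted p = 0.0118) in mgat4b mutant and -0.47 (SE 0.05, edgeR adjusted p = 3.7e-10) in control melanoma, and its edgeR adjusted p in mgat4b mutant melanoma was 0.111 without wild-type melanophores replicate 2. Scaled by the mitochondrial protein genes, mt-cyb turned to 0.25 in mgat4b mutant and 0.19 in control melanoma, mt-co3 to 0.41 and 0.23, and mt-co2 to 0.20 in mgat4b mutant melanoma, so these directions hold for the level in the library and not for the make-up of the mitochondrial counts. The proton channel subunit mt-atp6 had 184 and 251 counts in mgat4b mutant melanoma, 413 and 360 in control melanoma and 1193 and 1302 in wild-type melanophores. It fell by 1.13 on the log2 scale in mgat4b mutant melanoma (SE 0.26, edgeR adjusted p = 0.0204) and by 1.00 in control melanoma (SE 0.09, edgeR adjusted p = 1.5e-13). Both changes lie near the 2-fold limit, and single libraries decide the calls. The log2 fold change was -0.75 without mgat4b mutant melanoma replicate 1, and in control melanoma it was -0.89 without control melanoma replicate 2 and -0.93 without wild-type melanophores replicate 2. Scaled by the mitochondrial protein genes, it was -0.41 in mgat4b mutant and -0.34 in control melanoma, and both calls were lost. The short mt-atp8, which overlaps mt-atp6, had 10 and 0, 9 and 3, and 3 and 15 counts in the same order of groups and overlapped between all of them.

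Complex I genes split into those that were higher and those that were lower in melanoma. The minus-strand gene mt-nd6 showed the largest rise among the members tested against wild-type melanophores. It had 2009 and 1989 counts in mgat4b mutant melanoma, 4244 and 3454 in control melanoma and 762 and 743 in wild-type melanophores, so that every melanoma library lay above the wild-type libraries. Its level was 499.8 ± 108 CPM in mgat4b mutant melanoma, 587 ± 92.7 CPM in control melanoma and 77.1 ± 0.740 CPM in wild-type melanophores (SD, n = 2 each). The log2 fold change was 2.78 (SE 0.16, edgeR adjusted p = 6.6e-05) in mgat4b mutant and 3.05 (SE 0.07, edgeR adjusted p = 6.6e-37) in control melanoma against wild-type melanophores, and -0.20 (SE 0.16, edgeR adjusted p = 0.437) in mgat4b mutant against control melanoma. The calls against wild-type melanophores held under every alternative run. The log2 fold change ran from 2.18 to 3.51 in mgat4b mutant and from 2.15 to 3.70 in control melanoma, while between the melanoma groups it turned to 0.03 with libraries scaled by their totals.

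The small subunit mt-nd3 also rose in control melanoma, with 948 and 582 counts in mgat4b mutant melanoma, 1709 and 1431 in control melanoma and 948 and 1045 in wild-type melanophores. Its log2 fold change against wild-type melanophores was 1.35 (SE 0.08, edgeR adjusted p = 9.5e-21) in control melanoma and 0.94 (SE 0.13, edgeR adjusted p = 0.00245) in mgat4b mutant melanoma. With libraries scaled by their totals, these were 0.45 and 0.33. It passed 2-fold in mgat4b mutant melanoma without replicate 2 of that group, at 1.03, or without wild-type melanophores replicate 2, at 1.01. The largest subunit gene, mt-nd5, had 936 and 785 counts in mgat4b mutant melanoma, 1568 and 1462 in control melanoma and 1355 and 1389 in wild-type melanophores. Against wild-type melanophores its log2 fold change was 0.68 (SE 0.11, edgeR adjusted p = 0.00548) in mgat4b mutant and 0.83 (SE 0.07, edgeR adjusted p = 3.6e-15) in control melanoma, where it turned to -0.06 with libraries scaled by their totals. It was 0.08 in mgat4b mutant melanoma under that scaling.

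The remaining complex I genes were lower in melanoma or did not pass the test. The core subunit mt-nd4 had 293 and 246 counts in mgat4b mutant melanoma, 763 and 795 in control melanoma and 2026 and 2212 in wild-type melanophores. It was the protein gene with an adjusted p under 0.05 that was lower in mgat4b mutant than in control melanoma. The log2 fold change was -0.80 (SE 0.13, edgeR adjusted p = 0.00342), which is under 2-fold. Against wild-type melanophores it fell by 1.63 on the log2 scale in mgat4b mutant melanoma (SE 0.13, edgeR adjusted p = 2.2e-04) and by 0.76 in control melanoma (SE 0.07, edgeR adjusted p = 6.7e-13). Scaled by the mitochondrial protein genes, these were -0.88, under 2-fold, so that the call was lost, and -0.09 (edgeR adjusted p = 0.534). In levels per kilobase it stood at 44.7 and 51.6 CPM in mgat4b mutant melanoma, 85.0 and 86.9 CPM in control melanoma and 147 and 167 CPM in wild-type melanophores, with no overlap. Its overlapping neighbour mt-nd4l had 121 and 96, 246 and 204, and 426 and 415 counts in the same order of groups. The log2 fold change of mt-nd4l was -0.33 (edgeR adjusted p = 0.312) between the melanoma groups. Against wild-type melanophores it was -0.21 (edgeR adjusted p = 0.134) in control melanoma and -0.61 (edgeR adjusted p = 0.0318) in mgat4b mutant melanoma, where the edgeR adjusted p was 0.335 without wild-type melanophores replicate 1 and 0.361 without replicate 2. The gene mt-nd2 had 290 and 224, 459 and 419, and 1145 and 1359 counts, and mt-nd1 had 1076 and 900, 1325 and 1288, and 2663 and 2888 counts. In control melanoma their log2 fold changes against wild-type melanophores were -0.82 (edgeR adjusted p = 7.4e-11) for mt-nd2 and -0.40 (edgeR adjusted p = 5.8e-07) for mt-nd1. That of mt-nd2 in mgat4b mutant melanoma was -0.95 (edgeR adjusted p = 0.00375), while mt-nd1 did not pass the test there, at -0.14 (edgeR adjusted p = 0.392). Scaled by the mitochondrial protein genes, mt-nd1 turned to 0.60 in mgat4b mutant and 0.26 in control melanoma, and mt-nd4l to 0.13 and 0.44.

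**Figure D3:**
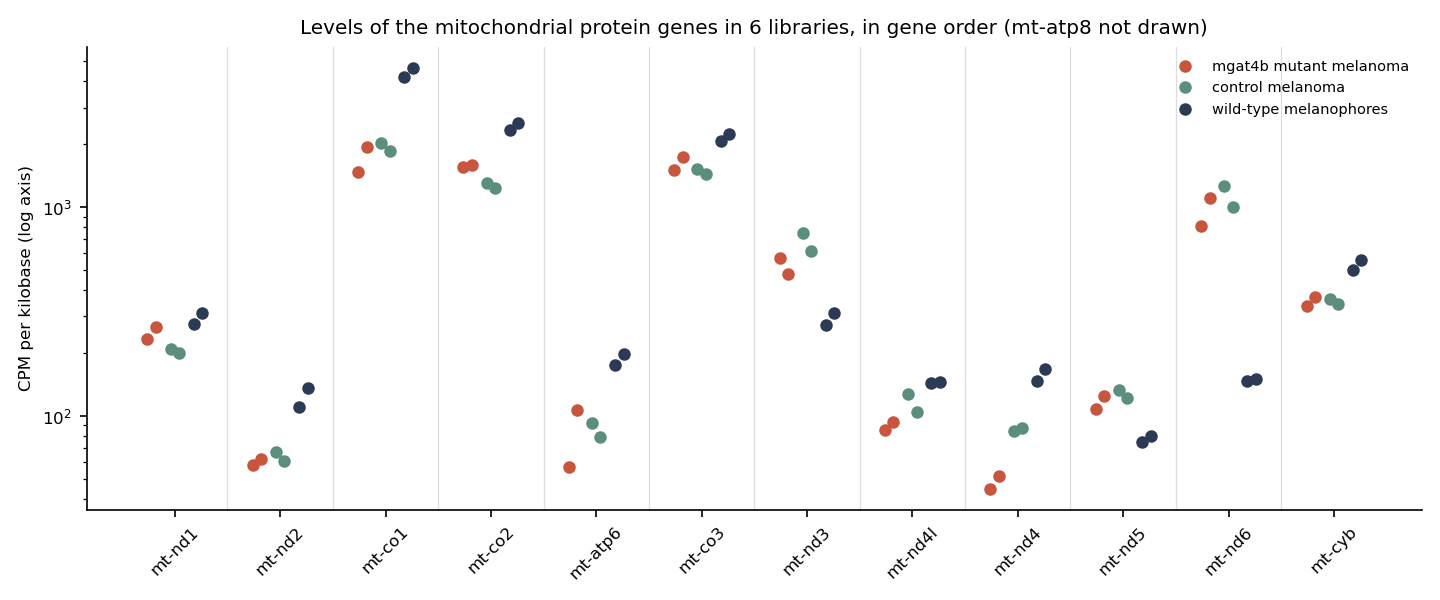
Levels of 12 mitochondrial protein genes in CPM per kilobase on a log axis, in gene order, with 1 point for each of the 6 libraries. The wild-type points lie lowest at mt-nd3, mt-nd5 and mt-nd6, where mt-nd6 stands at 147 and 149 CPM per kilobase against 816 and 1110 in mgat4b mutant melanoma and 1258 and 1005 in control melanoma, and lie highest at the other genes.

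Levels per kilobase put the members in a similar order in all groups, with mt-nd6 as the gene that moved farthest. In mgat4b mutant and in control melanoma the order of mean levels began with mt-co1, mt-co3, mt-co2, mt-nd6, mt-nd3, mt-cyb and mt-nd1, and in wild-type melanophores with mt-co1, mt-co2, mt-co3, mt-cyb, mt-nd1, mt-nd3 and mt-atp6. The gene mt-nd6 stood at place 4 of 13 in both melanoma groups and at place 9 in wild-type melanophores. The mean levels of mt-co1, mt-co3 and mt-co2 in mgat4b mutant melanoma were 1713, 1618 and 1572 CPM per kilobase, and their libraries overlapped, so that their order was within the spread. In wild-type melanophores, mt-co1 stood at 4224 and 4640 CPM per kilobase, clear of mt-co2 at 2335 and 2519 and of mt-co3 at 2072 and 2230. Per kilobase, mt-nd6 exceeded mt-nd5, its neighbour on the other strand, by 7.53 and 8.89 times in mgat4b mutant melanoma, 9.50 and 8.29 times in control melanoma and 1.97 and 1.88 times in wild-type melanophores. Against mt-cyb, the next protein gene on its other side, it was 2.42 and 2.98 times as high in mgat4b mutant melanoma, 3.47 and 2.93 times in control melanoma and 0.296 and 0.268 times in wild-type melanophores.

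The make-up of the protein-gene counts, which is free of any scaling between libraries, differed far more between melanoma and wild-type melanophores than within groups. The part held by mt-co1 was 37.1% and 41.0% in mgat4b mutant melanoma, 43.1% and 43.3% in control melanoma and 57.4% and 57.5% in wild-type melanophores. The part held by mt-nd6 was 6.86% and 7.81% in mgat4b mutant melanoma, 8.93% and 7.80% in control melanoma and 0.670% and 0.620% in wild-type melanophores. The 7 complex I genes together held 19.4% and 18.9%, 21.7% and 20.5%, and 8.20% and 8.39% in the same order of groups. Without mt-nd6 they held 12.5% and 11.1%, 12.8% and 12.6%, and 7.53% and 7.77%. Of the mean parts, that of mt-nd6 was 12.97 times, that of mt-nd3 4.0 times and that of mt-nd5 2.81 times as large in control melanoma as in wild-type melanophores. To turn the make-up of a melanoma library into that of a wild-type library, 17.4% to 21.8% of its counts would have to change gene for mgat4b mutant melanoma and 15.8% to 16.6% for control melanoma. Between mgat4b mutant and control melanoma this was 4.51% to 9.44%, beside 5.16% between the mgat4b mutant libraries themselves, 1.63% between the control melanoma libraries and 0.587% between the wild-type libraries. The distances between the melanoma groups thus overlapped the distance between the mgat4b mutant libraries. Single genes could still stand apart. The part of mt-co2 was 17.4% and 14.9% in mgat4b mutant and 12.4% and 12.7% in control melanoma, and that of mt-nd4 was 1.0% and 0.966% in mgat4b mutant and 1.605% and 1.80% in control melanoma.

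**Figure D4:**
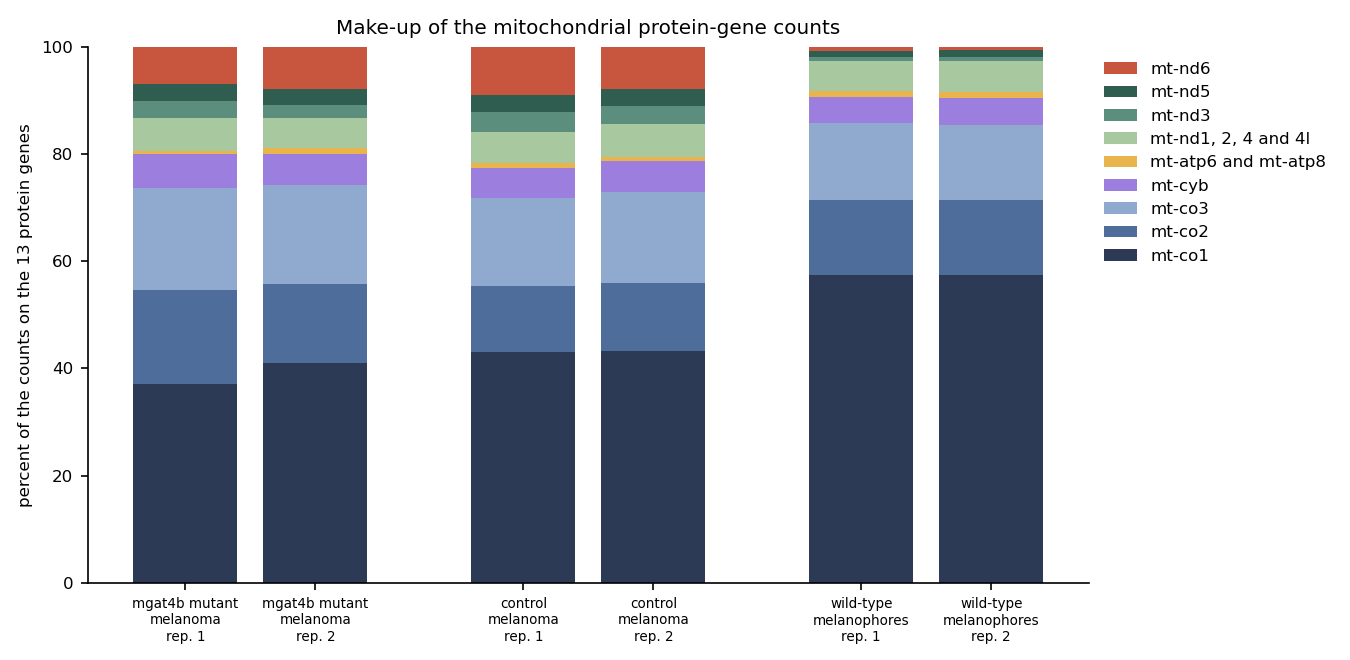
Stacked bars give the percent of the counts on the 13 protein genes that each gene or group of genes held in each of the 6 libraries. The mt-nd6 segment at the top is 6.86% and 7.81% in mgat4b mutant melanoma and 8.93% and 7.80% in control melanoma, against 0.670% and 0.620% in wild-type melanophores, while the mt-co1 segment at the bottom is largest in wild-type melanophores.

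Transfer RNAs, which carry amino acids to the mitochondrial ribosome, gave few counts. Their intervals are 68 to 77 bases long, and the libraries were made from fragmented RNA and selected by size. Reads of mature tRNAs and of precursors that span neighbouring genes cannot be told apart here, so these counts need not measure mature tRNAs. All 22 together had 124 and 66 counts in mgat4b mutant melanoma, 204 and 158 in control melanoma and 266 and 359 in wild-type melanophores. The 3 with the highest mean counts were trnS1, trnT and trnQ, the last with 24 and 15, 15 and 4, and 19 and 15 counts in the same order of groups. The lowest were trnE, with 0 counts in all 6 libraries, trnH, with 1 count in all, and trnV and trnL2, each with 1 count in each control melanoma library and none elsewhere. The tRNA for serine trnS1, which lies opposite to the transcript just behind mt-co1, had 22 and 18 counts in mgat4b mutant melanoma, 18 and 22 in control melanoma and 145 and 238 in wild-type melanophores. Against wild-type melanophores it fell by 1.92 on the log2 scale in mgat4b mutant melanoma (SE 0.38, edgeR adjusted p = 0.0114) and by 2.57 in control melanoma (SE 0.28, edgeR adjusted p = 2.8e-11). The call in mgat4b mutant melanoma was lost without wild-type melanophores replicate 2, at -1.51 (edgeR adjusted p = 0.207). As a percent of the mt-co1 counts beside it, trnS1 was 0.202 and 0.173 in mgat4b mutant melanoma, 0.0878 and 0.115 in control melanoma and 0.222 and 0.345 in wild-type melanophores.

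The tRNA for threonine trnT, which follows mt-cyb, had its highest counts in control melanoma. It had 8 and 5 counts in mgat4b mutant melanoma, 71 and 59 in control melanoma and 20 and 8 in wild-type melanophores. It rose by a log2 fold change of 2.89 (SE 0.37, edgeR adjusted p = 3.5e-09) in control melanoma against wild-type melanophores, and it fell by 2.598 on the log2 scale in mgat4b mutant against control melanoma (SE 0.55, edgeR adjusted p = 0.0116). Both control melanoma libraries lay above both mgat4b mutant libraries, at 10.9 and 8.91 CPM against 1.69 and 1.45 CPM. With 1 control library left out, the spread is measured in the mgat4b mutant libraries alone. Such a fit cannot show whether the call rests on 1 control library. The tRNA for aspartate trnD had 1 and 1 counts in mgat4b mutant melanoma, 3 and 3 in control melanoma and 26 and 31 in wild-type melanophores. Its summed level was 11.96 times lower in mgat4b mutant melanoma, with an exact 95% counting interval from 3.16 to 101.1 times, and 6.38 times lower in control melanoma, from 2.76 to 18.1 times, each against wild-type melanophores. The edgeR adjusted p was 0.0304 in mgat4b mutant and 7.0e-04 in control melanoma. Without wild-type melanophores replicate 1 or 2, the call of mgat4b mutant melanoma was lost (edgeR adjusted p = 0.508 and 0.63), as it was with libraries scaled by their mitochondrial protein genes (edgeR adjusted p = 0.0611) and by DESeq2 (adjusted p = 0.115). The tRNA for methionine trnM, with 3 and 0, 19 and 11, and 7 and 8 counts in the same order of groups, rose by 1.67 on the log2 scale in control melanoma against wild-type melanophores (SE 0.59, edgeR adjusted p = 0.0136). That call was lost without wild-type melanophores replicate 1 (edgeR adjusted p = 0.138) or replicate 2 (edgeR adjusted p = 0.0978), with libraries scaled by their totals (edgeR adjusted p = 0.223) and by DESeq2 (adjusted p = 0.0873). The 8 minus-strand tRNAs together had 80 and 56 counts in mgat4b mutant melanoma, 78 and 43 in control melanoma and 193 and 288 in wild-type melanophores. Their counts were highest in wild-type melanophores, mostly through trnS1, while mt-nd6 on the same strand was higher in melanoma. The 14 plus-strand tRNAs had 44 and 10 counts in mgat4b mutant melanoma, 126 and 115 in control melanoma and 73 and 71 in wild-type melanophores.

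Nuclear genes that build the same complexes took another course from the mitochondrial ones in mgat4b mutant melanoma. Of 92 nuclear subunit genes of oxidative phosphorylation, 86 were tested in mgat4b mutant against control melanoma, and 24 were called higher and 1 lower, with a median log2 fold change of 0.77. In mgat4b mutant melanoma against wild-type melanophores, 28 of 86 were called higher and 1 lower, with a median of 0.81. In control melanoma against wild-type melanophores, 13 of 87 were called higher and 1 lower, with a median of 0.11. The shares of all genes called in each comparison are those given above for the mitochondrial genes. The scaling moves these counts against wild-type melanophores. With libraries scaled by their totals, 15 were higher and 3 lower in mgat4b mutant melanoma, with a median of 0.20, and 2 higher and 35 lower in control melanoma, with a median of -0.78. When the mitochondrial protein genes set the scale, 65 were higher and 0 lower in mgat4b mutant melanoma, with a median of 1.58, and 36 higher and 0 lower in control melanoma, with a median of 0.77. The median of all genes moved as well. It was -0.63 in mgat4b mutant and -0.90 in control melanoma with totals, and 0.72 and 0.65 with the mitochondrial protein genes. The shares of all genes called under these scalings were not counted. In control melanoma the sign of the subunit median thus depends on the scaling, though under each of these scalings it lay above the median of all genes. The subunit median was -0.01 without wild-type melanophores replicate 1. Between the melanoma groups the median stayed between 0.66 and 0.98 under every alternative.

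The called subunit genes of lowest p were followed in each library. The ATP synthase ring subunit gene atp5mc1 had 873 and 517 counts in mgat4b mutant melanoma, 308 and 257 in control melanoma and 435 and 444 in wild-type melanophores. It rose by 1.99 on the log2 scale in mgat4b mutant against control melanoma (SE 0.15, edgeR adjusted p = 7.6e-05). Its paralog atp5mc3 (ATP5MC3 in the name table) rose there by 1.47 (SE 0.12, edgeR adjusted p = 1.1e-04) and the complex III subunit uqcr10 (UQCR10) by 1.604 (SE 0.16, edgeR adjusted p = 2.5e-04). Against wild-type melanophores, the complex IV subunit cox7c (COX7C) had 822 and 566 counts in mgat4b mutant and 756 and 724 in control melanoma, against 346 and 331 in wild-type melanophores. It rose by 2.37 (SE 0.11, edgeR adjusted p = 2.9e-05) in mgat4b mutant and by 1.82 (SE 0.09, edgeR adjusted p = 2.6e-22) in control melanoma. The other complex IV subunit genes cox7b, by 1.25 in control melanoma (SE 0.11, edgeR adjusted p = 1.7e-14), and cox5aa, by 1.61 in mgat4b mutant melanoma (SE 0.11, edgeR adjusted p = 1.2e-04), also rose against wild-type melanophores. So did the complex I subunit ndufb1 (NDUFB1) in control melanoma, by 1.73 (SE 0.16, edgeR adjusted p = 3.1e-13), and uqcr10 in mgat4b mutant melanoma, by 2.81 (UQCR10, SE 0.17, edgeR adjusted p = 9.4e-05). All of these calls held when any 1 library was left out.

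By complex, the nuclear subunit genes of complex I summed to 1057 and 894 CPM in mgat4b mutant melanoma, 568 and 592 CPM in control melanoma and 549.6 and 563 CPM in wild-type melanophores. Those of complex IV summed to 1474 and 1514, 894 and 884, and 676 and 667 CPM in the same order of groups. The mitochondrial genes of complex I summed to 1196 and 1396, 1586 and 1367, and 937 and 1050 CPM, and those of complex IV to 4553 and 5477, 5247 and 4872, and 9793 and 10690 CPM. Without mt-nd6, the complex I genes summed to 773 and 820, 934 and 846, and 860 and 972 CPM. Control melanoma then overlapped with wild-type melanophores, and mgat4b mutant melanoma lay below them. For complex IV, the nuclear sum was thus highest in mgat4b mutant melanoma and lowest in wild-type melanophores, while the mitochondrial sum was highest in wild-type melanophores and overlapped between the melanoma groups. For complex V, the nuclear genes summed to 1959 and 1660 CPM in mgat4b mutant melanoma, 1014 and 1008 CPM in control melanoma and 1216 CPM in both wild-type libraries. The mitochondrial genes of complex V summed to 40.9 and 72.7, 64.9 and 54.8, and 120.1 and 137.5 CPM.

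**Figure D5:**
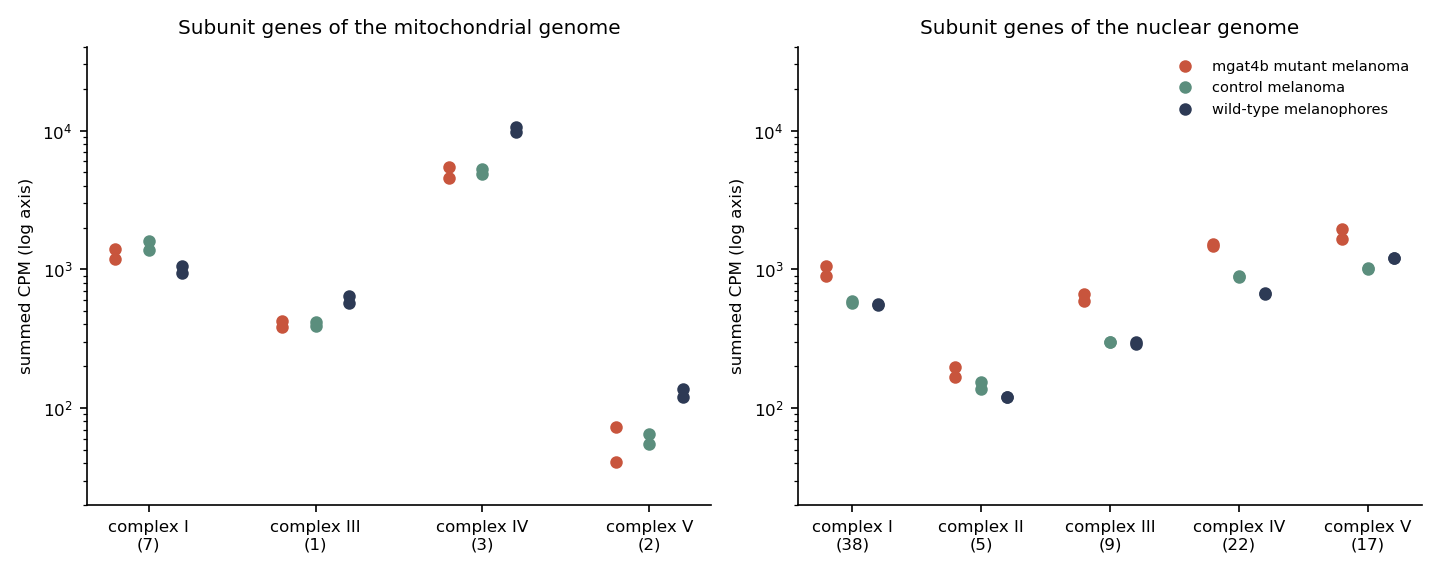
Summed CPM of the subunit genes of each respiratory complex on a log axis, for genes of the mitochondrial genome (left) and of the nuclear genome (right), with the number of genes in brackets and 1 point for each of the 6 libraries. The mitochondrial complex IV genes reach 9793 and 10690 CPM in wild-type melanophores, above all 4 melanoma libraries, and the nuclear complex IV genes reach 1474 and 1514 CPM in mgat4b mutant melanoma, above the other 4 libraries.

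Genes that serve the mitochondrial genome were also compared. The genes for mitochondrial ribosomal proteins, which join the 12S and 16S rRNAs in the ribosome, were called in part higher in mgat4b mutant than in control melanoma. There 12 of 75 tested were called higher and 0 lower, beside 5.86% and 6.68% of all genes tested. The median log2 fold change was 0.99, beside -0.02 over all genes. At an unadjusted edgeR p under 0.05, 26 were higher and 0 lower, and DESeq2 called 15 higher and 0 lower. Only 3 were called higher without control melanoma replicate 1 or without replicate 2, against 25 and 33 without mgat4b mutant melanoma replicate 1 and replicate 2. In control melanoma against wild-type melanophores, 3 of 79 were called higher and 12 lower, beside 19.9% and 12.1% of all genes. The median was -0.42, beside -0.01 over all genes. With libraries scaled by their totals, 0 were higher and 53 lower, with a median of -1.31, beside -0.90 over all genes. Scaled by their mitochondrial protein genes, 13 were higher and 1 lower, with a median of 0.23, beside 0.65 over all genes. The sign of the median thus turned with the scaling, but it lay below the median of all genes each time. In mgat4b mutant melanoma against wild-type melanophores, 16 of 78 were called higher and 1 lower, beside 9.72% and 9.57% of all genes. The median was 0.51, beside -0.03 over all genes. The higher calls were 5 without wild-type melanophores replicate 1 and 4 without its replicate 2, and with libraries scaled by their totals 6 were higher and 4 lower, with a median of -0.10. Under scaling by the mitochondrial protein genes, 35 were higher and 0 lower, with a median of 1.26. Over all genes, the median was -0.63 with library totals and 0.72 under scaling by the mitochondrial protein genes.

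The ribosomal protein gene mrpl12 (MRPL12), whose product in mammals also binds the mitochondrial RNA polymerase, had 112 and 89 counts in mgat4b mutant melanoma, 26 and 32 in control melanoma and 122 and 122 in wild-type melanophores. It rose by 2.51 on the log2 scale in mgat4b mutant against control melanoma (SE 0.32, edgeR adjusted p = 9.1e-04). It fell by 1.38 in control melanoma against wild-type melanophores (SE 0.26, edgeR adjusted p = 1.4e-05), and mrpl11 (MRPL11) fell by 1.59 (SE 0.33, edgeR adjusted p = 5.5e-05). The small-subunit gene mrps18c rose in mgat4b mutant melanoma, by 1.76 against control melanoma (SE 0.35, edgeR adjusted p = 0.0085) and by 2.20 against wild-type melanophores (SE 0.34, edgeR adjusted p = 0.00431). Against wild-type melanophores, mrps6 rose there by 2.04 (SE 0.33, edgeR adjusted p = 0.00514) and mrpl54 by 2.08 (SE 0.35, edgeR adjusted p = 0.00605). These calls held when any 1 library was left out. Those of mrpl54 in mgat4b mutant against control melanoma, of mrpl12 in mgat4b mutant melanoma against wild-type melanophores and of mrpl4 (MRPL4) in control melanoma against wild-type melanophores did not.

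Genes of mitochondrial transcription and replication, of RNA processing and stability and of aminoacyl-tRNA synthesis gave few calls. In mgat4b mutant against control melanoma, 3 of 18, 2 of 35 and 1 of 21 were called higher in these lists and 0 lower in each, with median log2 fold changes of 0.95, 0.66 and 0.54. At an unadjusted edgeR p under 0.05, 0, 1 and 0 were lower, and DESeq2 called 0 lower in each. Without mgat4b mutant melanoma replicate 1, the counts were 3 higher and 0 lower, 10 and 2, and 2 and 4 in the same order of lists, and without its replicate 2 they were 9 and 0, 7 and 2, and 5 and 0. Without control melanoma replicate 1 or replicate 2, they were 1 or 2, 1 and 0 higher and 0 lower. In control melanoma against wild-type melanophores, 1 of 19, 0 of 40 and 1 of 22 were called higher and 3, 3 and 0 lower. There 1 gene of RNA processing was higher and 4 synthetase genes were lower at an unadjusted edgeR p under 0.05, and DESeq2 called 1 and 0. The medians were -0.59, -0.18 and -0.18, and turned to 0.07, 0.48 and 0.47 with libraries scaled by their mitochondrial protein genes, which called 1, 0 and 0 lower, while scaling by totals called 12, 23 and 11 lower. Over all genes, the median was -0.01, and it moved to 0.65 and -0.90 under these scalings in that order. Leaving out 1 library gave 1 to 4, 1 to 4 and 0 to 2 lower, with the fewest transcription and RNA processing genes without wild-type melanophores replicate 2. In mgat4b mutant melanoma against wild-type melanophores, 3 of 19, 2 of 40 and 0 of 22 were called higher and 0, 1 and 1 lower. Of the transcription genes 0 were lower and of the synthetase genes 3 were higher at an unadjusted edgeR p under 0.05, and DESeq2 called 0 of both. The median log2 fold changes were 0.42, 0.16 and 0.01. They were 0.44, 0.14 and -0.00 without wild-type melanophores replicate 1 and 0.70, 0.28 and -0.00 without its replicate 2. Without mgat4b mutant melanoma replicate 1 they were 0.28, 0.38 and -0.06, and without its replicate 2 they were 0.89, 0.18 and 0.03. Under scaling by the mitochondrial protein genes, 8, 14 and 6 were higher and 0 lower, and with library totals 0 were higher and 0, 5 and 2 lower. The median of all genes was 0.72 and -0.63 under these scalings in that order. The shares of all genes called in the same comparisons are those given above.

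The transcription list also holds mrpl12, whose calls are given above. Of the other named calls in these lists, 1 held when any 1 library was left out. The gene mterf4 (MTERF4), whose product in mammals brings an rRNA methyltransferase to the mitochondrial ribosome, had 36 and 24 counts in mgat4b mutant melanoma, 83 and 80 in control melanoma and 17 and 26 in wild-type melanophores. It rose by 2.602 on the log2 scale in control melanoma against wild-type melanophores (SE 0.31, edgeR adjusted p = 5.1e-10). The remaining named calls were each lost without at least 1 library. They were those of the RNA-DNA hybrid nuclease rnaseh1 (RNASEH1), the mitochondrial topoisomerase top1mt, lrpprc (LRPPRC), which in mammals stabilises mitochondrial messenger RNAs, the pseudouridine synthase trub2 and iars2 (IARS2) in mgat4b mutant against control melanoma. For lrpprc, which had 465 and 253 counts in mgat4b mutant melanoma, 303 and 216 in control melanoma and 584 and 546 in wild-type melanophores, the log2 fold change of 1.15 (SE 0.21, edgeR adjusted p = 0.00537) went under 2-fold without mgat4b mutant melanoma replicate 1, at 0.91, and without control melanoma replicate 2, at 0.90. In control melanoma against wild-type melanophores, the lost calls were those of mgme1 (MGME1), rpusd4 (RPUSD4), pus1 (PUS1), gatc (GATC) and the mitochondrial poly(A) polymerase mtpap (MTPAP). The counts of mtpap were 19 and 16 in mgat4b mutant melanoma, 19 and 22 in control melanoma and 74 and 65 in wild-type melanophores, and its log2 fold change of -1.07 (SE 0.33, edgeR adjusted p = 0.00564) became -0.98 without control melanoma replicate 1. In mgat4b mutant melanoma against wild-type melanophores, they were those of rnaseh1, mterf4, fastkd3 (FASTKD3), slirp (SLIRP), nars2 (NARS2) and osgepl1 (OSGEPL1). The last, a tRNA modifying enzyme, had 0 counts in both mgat4b mutant libraries, 1 and 5 in control melanoma and 12 and 14 in wild-type melanophores, and was at least 1.78-fold lower than in wild-type melanophores, taken against 3 counts per library.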

How the data were processed

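RNA was taken from cells enriched on Percoll gradients, depleted of cytoplasmic and mitochondrial rRNA and made into stranded total RNA libraries. The authors used Trimmomatic for trimming, STAR for alignment to GRCz11 and featureCounts for assigning reads to genes. Raw gene counts were deposited, in 1 file per library. The annotation release, strand setting and the treatment of reads over several genes are not given in the sources used here. Totals ran from 3538922 to 8446997 counts per library.

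Symbols came from a gene name table that covered 29201 of 32520 identifiers. With R 4.3.3 and edgeR 4.0.16 (limma 3.58.1), genes were kept by filterByExpr (minimum count 10, minimum total 15) within each pair of groups, scaled by TMM and tested by the quasi-likelihood test with Benjamini-Hochberg adjustment over all genes tested. Each SE was derived from this test, as the absolute log2 fold change divided by the square root of the F statistic. Levels use TMM over all 6 libraries. The pipeline was tested on simulated data. Alternatives were DESeq2 1.42.0, other scalings and filters, a joint fit, a replicate block and leaving out each library. Shares within the mitochondrial counts were not tested.

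All protein genes and rRNAs are named. Of tRNAs, those called and the 3 of highest and lowest mean count are named, and of other lists the called genes of lowest p, at most 3 per comparison. The members were set by chromosome alone, but the choice to study them and the choice of the lists were made with earlier results of these data known.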

Additional observations from a re-analysis of the deposited data

How the results depend on the processing

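Of 705 log2 fold changes set against the main run for the named genes, 618 kept their direction and their side of the threshold, 26 turned direction, and 38 gained and 23 lost the call. For each gene and comparison, these include the unchanged main value judged without the 2-fold minimum, which can only add calls. The direction turned mainly where it was small. With libraries scaled by their totals, the median of all genes moved to -0.90 in control melanoma and to -0.63 in mgat4b mutant melanoma against wild-type melanophores and to 0.19 between the melanoma groups, and calls against wild-type melanophores became 2 higher and 12 lower in control melanoma and 10 lower in mgat4b mutant melanoma. Under this scaling mt-rnr1 was -0.28 and mt-nd5 -0.0606 in control melanoma against wild-type melanophores, mt-atp8 -0.26 in mgat4b mutant melanoma against wild-type melanophores, and mt-nd2 0.17, mt-co1 0.0793, mt-atp6 0.17, mt-nd5 0.14 and mt-nd6 0.0306 between the melanoma groups. With libraries scaled by the 13 protein genes, which compares make-up only, calls became 8 higher and 3 lower in control melanoma and 5 higher and 1 lower in mgat4b mutant melanoma, and log2 fold changes against wild-type melanophores turned for mt-nd1 (0.26 and 0.60), mt-co3 (0.23 and 0.41), mt-nd4l (0.44 and 0.13) and mt-cyb (0.19 and 0.25) in control and mgat4b mutant melanoma and for mt-co2 (0.20) in mgat4b mutant melanoma. Between the melanoma groups mt-cyb was -0.0299 with at least 10 counts in every library. That filter left 0 members lower there and 2 higher and 3 lower in control melanoma against wild-type melanophores. Without the 2-fold minimum the counts were those given above, 2 and 2, 11 lower, and 4 and 11. Leaving out 1 library gave 1 to 3 members higher and 0 to 3 lower between the melanoma groups and 2 to 5 higher in mgat4b mutant melanoma against wild-type melanophores. Log2 fold changes that turned without 1 library ran from -0.150 to 0.00924 for mt-nd2, from -0.368 to 0.0202 for mt-co1, from -0.573 to 0.323 for mt-atp6 and from -0.0352 to 0.0988 for mt-cyb between the melanoma groups, and from -5.84 to 1.24 for mt-atp8, a gene of at most 15 counts, in mgat4b mutant melanoma against wild-type melanophores. The cause of the turns without 1 library was not tested. The mitochondrial share was 0.653%, 0.556% and 1.65% in mgat4b mutant melanoma, control melanoma and wild-type melanophores without rRNAs, 3.99%, 2.31% and 4.08% without the 20 most abundant other genes, and 0.640%, 0.551% and 1.61% for protein genes. As parts of all mitochondrial counts, log2 ratios turned to -0.53 for mt-nd1, -0.50 for mt-co2 and -0.69 for mt-co3 between the melanoma groups and to -0.15 for mt-nd1, -0.54 for mt-co2, -0.33 for mt-co3, -0.61 for mt-nd4l and -0.50 for mt-cyb in mgat4b mutant melanoma against wild-type melanophores, since the rRNAs enter that total. Libraries with the same replicate number did not deviate together (correlations of -0.018, -0.003 and 0.001 over 15099 genes), and the main fits did not pair samples by number. Such correlations cannot show whether libraries of the same number were handled together. A fit with the replicate block gave 1 higher and 1 lower, 4 higher and 5 lower, and 2 higher and 5 lower members, against 6 lower without it in the last comparison.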
